A study of Danio rerio with 9 samples.

Results

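Loss of MondoA without the visible phenotype was examined by comparing maternal-zygotic *mondoa* mutants (MZ*mondoa*, allele ka405) that had unaffected epiboly with wild-type embryos. Both groups had 3 RNA sequencing libraries, and these 6 libraries were selected by their labels from 9 in the series. The other 3 libraries came from MZ*mondoa* embryos with affected epiboly. The allele is a small CRISPR-Cas9 deletion that shifts the reading frame of *mondoa* (gene symbol *mlxip*), and it was carried by a single mutant line. Because the mothers were homozygous too, neither the egg nor the genome of the embryo supplied an intact copy. The wild-type fish descended from the AB or the golden strain, and the sources used here do not say which of them gave these embryos. Mutants were separated into unaffected and affected embryos by their epiboly at sampling, so the unaffected group is a selected part of the mutant embryos. All labels give 5 hours post fertilization, whereas the methods of the study describe controls that were far advanced in epiboly. RNA was taken from pools of whole embryos, in which fewer cells of a type and less RNA per cell cannot be told apart. The labels do not say whether replicates came from separate clutches, so p-values measure the spread between these libraries only.

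MondoA is a transcription factor that is held in the cytoplasm until glucose 6-phosphate accumulates, and it then enters the nucleus and binds DNA together with its partner Mlx. Its best known target in mammals is *Txnip*, which encodes a protein that limits glucose uptake. In epiboly the blastoderm thins and comes to enclose the yolk cell, a movement carried by the outer enveloping layer, the deep cells beneath it and the yolk syncytial layer that lies on the yolk.

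Between 27567897 and 39299268 exonic read pairs were counted per library. A principal component analysis of the 6 libraries placed 52.7% of the variance on a component that separated mutants from wild-type. The next component, with 18.7%, set replicate 3 of both groups apart from the other 4 libraries. In these replicate 3 libraries the 77 ribosomal protein genes were higher than in replicates 1 and 2, by a median of 0.40 (unaffected) and 0.25 (wild-type) on the log2(CPM + 1) scale, and 19 genes of the COMPASS histone methylation complexes were lower, by -0.44 and -0.35. CPM is the field's usual depth-adjusted unit, in which the count of a gene is divided by the scaled total of its library. Markers of the enveloping layer (*krt4*, 4060 to 5460 CPM over the 6 libraries), the yolk syncytial layer (*mxtx1*, 19.2 to 27.6), the endoderm (*sox32*, 36.6 to 66.8), the notochord (*noto*, 21.1 to 23.9), the presomitic mesoderm (*msgn1*, 339 to 505) and the neural plate (*sox3*, 226 to 255) were detected in every library. None of these 6 genes passed the test between unaffected mutants and wild-type, although *sox32* (log2 fold change 0.51, edgeR adjusted p = 0.06) did with a replicate block (0.00696). They are single genes of a larger marker set. In that set *krt5* of the enveloping layer passed (0.75, edgeR adjusted p = 0.000878). *hnf4a* (yolk syncytial layer, log2 fold change 0.52), *nanos3* and *dnd1* (germ cells, -1.27 and -0.90) and *buc* and *zp3b* (oocyte, 0.56 and 0.56) passed with the block but not without it. The block gave them edgeR adjusted p of 0.0185, 0.0086, 0.0149, 0.0395 and 0.0491. The germ cell marker *ddx4* went the other way from *nanos3* and *dnd1* (0.35), and the oocyte marker *zar1* was at -0.08. Neither *ddx4* nor *zar1* passed with or without the block.

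**Figure D1:**
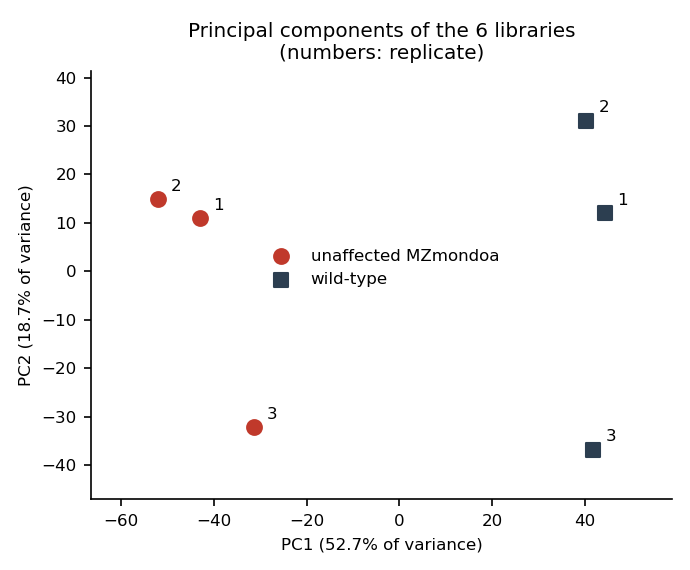
Principal components of log2 CPM in the 3 unaffected MZmondoa and 3 wild-type libraries, each point a library numbered by replicate. PC1 (52.7% of the variance) separates the groups, and PC2 (18.7%) separates replicate 3 of both groups from the rest.

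The mutated gene itself was checked in every library. *mlxip* (ENSDARG00000059474) stood at 111, 113 and 51.9 CPM in wild-type replicates 1 to 3 and at 21.0, 20.8 and 13.0 CPM in the unaffected mutants. The groups did not overlap, and replicate 3 was the lowest library of each. The fall measured -2.33 on the log2 scale, with an SE of 0.29 (adjusted p = 0.000963 in edgeR), so transcript of the mutated gene was reduced but still counted. Its level in affected mutants was 14.7 ± 1.68 CPM (SD, n = 3), and the mutant groups did not differ detectably (edgeR adjusted p = 0.611).

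Of 16962 genes tested, 1628 passed an edgeR adjusted p of 0.05 between unaffected mutants and wild-type, which is 9.60% of all genes. Of these, 789 were higher (4.65%) and 839 were lower (4.95%) in the mutants. The median log2 fold change over all genes tested was -0.0068. Among the called genes, 891 differed by at least 2-fold (395 higher, 496 lower) and 80 by at least 16-fold (36 higher, 44 lower). The 3 libraries of a group lay entirely above or below those of the other for 1618 of the called genes, against 27.9% of all genes tested. Genes were also split into 4 equal parts by their average level over all 9 libraries. In the top part 191 of 319 called genes were higher in the mutants, whereas 234 of 404 were lower in the bottom part. Most of the libraries averaged are mutant, so a rise in mutants itself moves a gene to a higher part. The direction of the calls is therefore not independent of the split. The count of calls fell to 809 without unaffected replicate 1, to 758 without unaffected replicate 2 and to 965 with only the 6 libraries in the fit, and 639 of the 1628 genes held the call whichever library was left out. In the fit with a replicate block the count was 2758 (16.3% of all genes, against which calls with the block are to be read) and included 1624 of the 1628, and without replicate 3 of every group it was 2174.

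**Figure D2:**
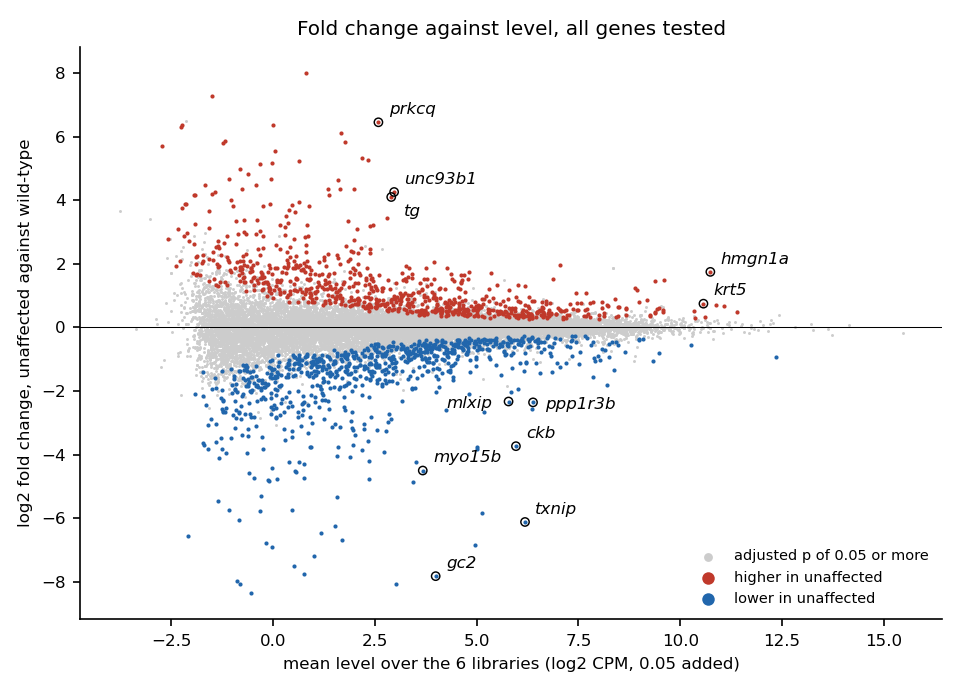
Log2 fold change of unaffected MZmondoa against wild-type embryos (vertical axis) against the mean level over the 6 libraries (horizontal axis, log2 CPM with 0.05 added), for all 16962 genes tested. Red and blue points are the 789 higher and 839 lower genes at an edgeR adjusted p under 0.05, and circled genes are named in the text.

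Among the genes that Mondo factors control in mammals, the falls that passed the test were both at *txnip*. The *txnip* identifier ENSDARG00000036107 was at 133, 132 and 167 CPM in wild-type and at 2.26, 1.69 and 2.24 CPM in unaffected mutants (log2 fold change -6.12 with an SE of 0.22, adjusted p = 8.83e-07 in edgeR). The further *txnip* identifier ENSDARG00000070000 fell from 3.08, 2.67 and 2.41 to 0.18, 0.0703 and 0.0947 CPM (-4.53, SE 0.40, adjusted p = 0.000155). For both, every mutant library was far below every wild-type library. Of 25 tested genes of this list, 2 fell and 1 rose (12.0%, near the 9.60% of all genes), with a median log2 fold change of -0.06. The gene that rose was *khk*, encoding ketohexokinase, the entry enzyme of fructose use (0.66, SE 0.14, adjusted p = 0.0178), and its call was lost without unaffected replicate 1 or wild-type replicate 1 or 2 (0.0522 to 0.0723). *hk2* (hexokinase 2), *fasn* (fatty acid synthase), *acaca* and *acacb* (acetyl-CoA carboxylases), of which the last 2 were chosen after their values were seen, did not pass the test, with log2 fold changes of 0.01, -0.21, -0.06 and 0.22. *mid1ip1a*, a regulator of acetyl-CoA carboxylase, was likewise chosen after its values were seen. *mid1ip1a* was at 32.8, 38.0 and 32.4 CPM in wild-type and at 41.6, 45.7 and 37.8 CPM in unaffected mutants (0.28, SE 0.12, edgeR adjusted p = 0.183, 0.0312 with the block), against 154 ± 21.3 CPM (SD, n = 3) in affected mutants.

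The partner of MondoA did not pass the test. Of 15 tested genes of the Mondo, Myc and Max network, *mlxip* was the only called member (6.67%, against 9.60% of all genes). *mlx*, encoding the partner, stood at 73.3, 65.5 and 68.0 CPM in wild-type and at 79.0, 80.7 and 82.0 CPM in unaffected mutants (log2 fold change 0.22 with an SE of 0.08, adjusted p = 0.0995 in edgeR). Its libraries did not overlap between the groups, yet the difference missed the threshold.

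The largest falls, taken by log2 fold change among genes with an average log2 CPM of at least 3 and groups that did not overlap, included genes of varied function besides *mlxip* and *txnip*. *gc2* varied widely in wild-type (13.5, 57.5 and 24.0 CPM) and was at 0.144, 0.0352 and 0.221 CPM in unaffected mutants (log2 fold change -7.82 with an SE of 0.68, adjusted p = 0.000144 in edgeR). *myo15b*, an unconventional myosin, fell from 32.2, 24.3 and 16.7 to 1.11, 0.739 and 1.36 CPM (-4.50, SE 0.29). *wdr47*, a WD-repeat protein, fell from 23.1, 19.9 and 21.3 to 1.40, 1.34 and 0.726 CPM (-4.22, SE 0.25). For these genes every mutant library was far below every wild-type library. *ckb*, the brain-type creatine kinase that buffers ATP, was at 89.9, 164 and 94.4 CPM in wild-type and at 8.69, 9.39 and 8.12 CPM in the mutants (-3.73, SE 0.22, adjusted p = 1.75e-05). *znfl1h*, a zinc finger gene, fell by 3.76 on the log2 scale. It was the only called member of the 8 tested *znfl1* genes (12.5%, against 9.60% of all genes, and 2 with the replicate block). *flvcr1*, a membrane transporter, fell from 38.6 to 97.8 CPM in wild-type to 9.23 to 11 CPM (-2.66, SE 0.29). *itih3b.2*, an inter-alpha-trypsin inhibitor chain, had a log2 fold change of -2.61, *usp48*, a deubiquitinase, of -2.1, and *aldh1l1*, the formyltetrahydrofolate dehydrogenase of folate metabolism, of -2.03. All of these calls held whichever of the 6 libraries was left out.

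The glycogen regulator *ppp1r3b*, which targets protein phosphatase 1 to glycogen, combined a large fall with tight replicates. It stood at 138, 148 and 134 CPM in wild-type and at 29.2, 28.7 and 24.0 CPM in unaffected mutants (log2 fold change -2.36 with an SE of 0.11, adjusted p = 2.78e-06 in edgeR). In affected mutants it was at 46.1 ± 3.55 CPM (SD, n = 3), which was higher than in unaffected mutants by 0.76 (SE 0.10, adjusted p = 0.00965).

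The largest rises by the same rule were led by genes that were scarce in wild-type. The average level in the rule was taken over all 9 libraries, most of them mutant. Genes scarce in wild-type could thus pass it through their mutant level, whereas genes nearly absent from mutants had to pass it through wild-type. *prkcq*, encoding protein kinase C theta, was at 0.0923, 0.0872 and 0.203 CPM in wild-type, close to the 0.0762 to 0.0923 CPM that 3 counts give, and at 9.16, 16.2 and 9.98 CPM in unaffected mutants (log2 fold change 6.45 with an SE of 0.54, adjusted p = 0.000115 in edgeR). *unc93b1*, which escorts nucleic acid-sensing Toll-like receptors, rose from 1.11, 0.727 and 0.508 to 13.7, 18.6 and 12.2 CPM (4.26, SE 0.27). *tg*, encoding thyroglobulin, rose from 0.646, 0.872 and 0.915 to 14.4, 15.8 and 12.0 CPM (4.1, SE 0.18). The other 9 rises selected by rule had log2 fold changes from 1.68 to 1.96. *tmbim1* rose by 1.93, the membrane metalloprotease gene *mmp15* by 1.88, the actin capping gene *capg* by 1.88, *fhip2b* by 1.75, the fatty acid oxidation gene *ech1* by 1.72, *xkr5b* by 1.72 and the cathepsin gene *ctso* by 1.68 on the log2 scale. A signal recognition particle RNA (ENSDARG00000112374) rose by 1.96, but this symbol names many near-identical copies and its counts are uncertain. All 12 calls held whichever of the 6 libraries was left out.

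**Figure D3:**
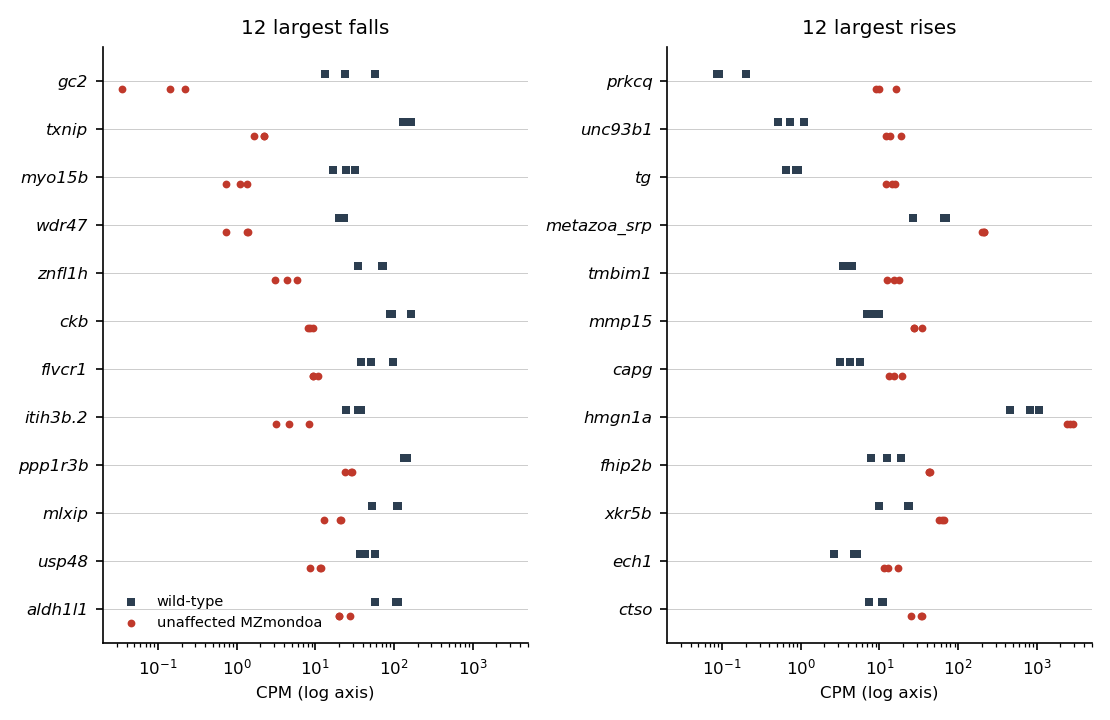
CPM (log axis) of the 12 genes with the largest falls (left) and rises (right) by rule, each point a library, squares wild-type and circles unaffected MZmondoa. The rule required groups that did not overlap, and the distance is widest for gc2 and txnip on the left and prkcq on the right.

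By the change in CPM, abundant genes came to the fore. *hmgn1a*, encoding a nucleosome-binding protein, was at 460, 1080 and 816 CPM in wild-type and at 2420, 2620 and 2860 CPM in unaffected mutants (log2 fold change 1.75 with an SE of 0.25, adjusted p = 0.00195 in edgeR). *ctsb*, encoding the lysosomal protease cathepsin B, was at 196, 445 and 578 CPM in wild-type and at 1100, 1170 and 1190 CPM in the mutants (1.51, SE 0.30, adjusted p = 0.0117). In both cases wild-type replicate 1 was the lowest library and the mutants lay close together. *fn1*, encoding the matrix protein fibronectin, had the largest fall in CPM, from 1540, 1620 and 1250 to 1070, 831 and 1120 (-0.54, SE 0.14, adjusted p = 0.034), and *tpr*, a nuclear pore gene, fell from 609, 676 and 564 to 512, 481 and 430 CPM (-0.38, SE 0.10, adjusted p = 0.0367). The fall of *fn1* was lost without unaffected replicate 1 or 2 or wild-type replicate 1 or 2 (adjusted p = 0.0785 to 0.124), and that of *tpr* without any of the unaffected libraries or wild-type replicate 1 or 2 (0.0589 to 0.114). A further identifier of the signal recognition particle RNA (ENSDARG00000117197) fell by 0.80, opposite to the identifier named among the rises.

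Histone H2A genes supplied the remaining falls of this rule. *hist1h2a1* was at 263, 327 and 384 CPM in wild-type and at 146, 152 and 176 CPM in unaffected mutants (log2 fold change -1.04 with an SE of 0.13, adjusted p = 0.00118 in edgeR). *hist1h2a2* fell by 1.82 and *hist1h2a3* by 0.77 on the log2 scale, with calls lost without unaffected replicate 1 or 2 (adjusted p = 0.0724 and 0.0719 for *hist1h2a2*, 0.0975 and 0.0976 for *hist1h2a3*). The other 7 family members with this symbol, looked up after these values were seen, did not pass the test. *hist1h2a8* (-0.78, edgeR adjusted p = 0.085), *hist1h2a9* (-1.85, 0.185) and *hist1h2a4* (-0.40, 0.167) lay below wild-type on average, and *hist1h2a8* and *hist1h2a4* passed with the replicate block (0.0175 and 0.0427). *hist1h2a5*, *hist1h2a7*, *hist1h2a10* and *hist1h2a11* had adjusted p of 0.611, 0.998, 0.922 and 0.984. Histone genes are near-identical copies, and reads that map to several of them were lost at the uniqueness step, so values of single members are uncertain.

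Genes of glycolysis passed the test at about the share of all genes, and no tested glucose transporter passed. *pfkp*, a phosphofructokinase of glycolysis, fell from 7.84, 7.04 and 6.99 to 2.95, 3.76 and 3.16 CPM (log2 fold change -1.15 with an SE of 0.18, adjusted p = 0.00309 in edgeR). Of 32 genes of glycolysis and gluconeogenesis, 2 rose, *gapdhs* among them, and *pfkp* fell (9.38%, against 9.60% of all genes), and with the replicate block 5 rose and 1 fell. In this list 22 genes had a log2 fold change above 0, with a median of 0.14. The groups did not overlap for 12 of the 32, against 27.9% of all genes. The call of *gapdhs*, a glyceraldehyde phosphate dehydrogenase (1.08, SE 0.28), was lost without unaffected replicate 2 or 3 or wild-type replicate 1 or 2 (0.0529 to 0.128). None of 10 tested glucose transporters was called, against 9.60% of all genes.

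In the TCA cycle and the enzymes that feed it, 3 of 27 genes rose and 2 fell (18.5%, against 9.60%), and with the replicate block 6 rose and 2 fell. *suclg2*, a subunit of succinyl-CoA ligase, fell from 24.4, 23.3 and 26.5 to 15.2, 16.7 and 12.0 CPM (log2 fold change -0.76 with an SE of 0.14, adjusted p = 0.00984 in edgeR), and this call held whichever library was left out. *pdhx*, a component of the pyruvate dehydrogenase complex, fell by 0.58, whereas *pdha1a* of the same complex rose by 0.28, *idh3g* (isocitrate dehydrogenase) by 0.39 and *aco1* (aconitase) by 0.48 on the log2 scale. Each of these 4 calls was lost without unaffected replicate 1 or 2 (adjusted p = 0.0607 to 0.142) and without other libraries. The list had 1 to 4 called members when single libraries were left out.

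The genes encoded by mitochondrial DNA were the list with the largest share of calls. Of 13 tested, 8 rose and 1 fell (69.2%, against 9.60% of all genes), with a median log2 fold change of 0.54, and together they took 1.15% to 1.48% of scaled counts in wild-type and 1.60% to 1.86% in unaffected mutants. *mt-co3*, a subunit of cytochrome c oxidase, rose from 1280, 1370 and 1640 to 2040, 2420 and 2520 CPM (0.70, SE 0.13, edgeR adjusted p = 0.00953). *mt-nd4*, a subunit of complex I that was chosen after its values were seen, rose from 523, 592 and 528 to 758, 875 and 828 CPM (0.58, SE 0.10, adjusted p = 0.00548). *mt-nd6*, which is transcribed from the other strand, went the opposite way, from 615, 563 and 528 to 464, 437 and 429 CPM (-0.36, SE 0.08, adjusted p = 0.0249). The sources used here do not say if strand was considered in the counting, so reads of *mt-nd6* and of the opposite strand cannot be told apart. These genes lie on shared precursor transcripts and are not independent of each other. Of 75 tested respiratory chain genes of the nucleus, 1 rose and 2 fell (4.0%), with a median of 0.05, and with the replicate block 4 rose and 5 fell. The list of genes encoded by mitochondrial DNA had 9 called members without wild-type replicate 3, 6 without unaffected replicate 1 and 2 without unaffected replicate 2. Its median stayed between 0.48 and 0.63 in all of these fits and without replicate 3 of every group. The call of *mt-nd6* was lost without any library except wild-type replicate 3 (adjusted p = 0.0516 to 0.105).

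The pathway from acetyl-CoA to sterols and steroid hormones rose at single steps. Of 21 terpenoid backbone genes, *hmgcs1*, encoding the HMG-CoA synthase of cytosolic sterol synthesis, rose from 25.9, 22.0 and 25.6 to 41.1, 38.3 and 36.7 CPM (log2 fold change 0.66 with an SE of 0.10, adjusted p = 0.0036 in edgeR). *acat2*, which makes acetoacetyl-CoA, rose from 13.2, 12.5 and 12.5 to 17.6, 19.8 and 18.9 CPM (0.56, SE 0.10, adjusted p = 0.00567). Both calls held whichever library was left out. The list had 2 called members (9.52%, against 9.60% of all genes) and a median of 0.14. Affected mutants exceeded unaffected mutants in *hmgcs1* by a further 0.67 (adjusted p = 0.0143).

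Of 14 genes of sterol synthesis, 2 were called (14.3%, against 9.60%), with a median log2 fold change of 0.18. *soat1*, which esterifies cholesterol, rose by 0.68 on the log2 scale. *nsdhl*, the sterol dehydrogenase the study examined, ranged from 1.22 to 2.18 CPM in wild-type and from 1.71 to 1.80 CPM in the mutants and did not pass the test (-0.08, SE 0.25). *abca1*, the cholesterol efflux transporter, fell from 196, 242 and 162 to 97.0, 124 and 58.5 CPM (log2 fold change -1.11 with an SE of 0.24, adjusted p = 0.0191 in edgeR). *ldlrb*, a low-density lipoprotein receptor, rose by 0.49 in unaffected mutants and was lower by 0.77 in affected than in unaffected mutants (adjusted p = 0.0134). The call of *soat1* was lost without wild-type replicate 1 (0.0604), of *abca1* without unaffected replicate 1 or wild-type replicate 2 (0.0623 and 0.0582), and of *ldlrb* without unaffected replicate 1 or 2 or wild-type replicate 2 or 3 (0.0589 to 0.0902).

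Of 15 tested genes of steroid hormone synthesis, 3 rose and 1 fell (26.7%, against 9.60%), with a median log2 fold change of 0.23. *hsd20b2*, a steroid 20-beta-hydroxysteroid dehydrogenase, rose from 9.20, 7.82 and 13.7 to 20.5, 30.0 and 20.2 CPM (1.20, SE 0.22, edgeR adjusted p = 0.00877), and was the only member of the list called whichever library was left out. *hsd17b12* rose by 0.55 and *cyp17a2* by 1.15 on the log2 scale, the latter at under 1 CPM in every library, and *fdx2*, a mitochondrial ferredoxin, fell by 0.61. *hsd17b12* also has a known role in fatty acid elongation. *cyp11a1*, the enzyme that makes pregnenolone, was at 127, 140 and 131 CPM in wild-type and at 154, 172 and 141 CPM in unaffected mutants (0.23, SE 0.09, adjusted p = 0.15), and affected mutants lay above unaffected ones by 0.71 (adjusted p = 0.00885). The calls of *cyp17a2* and *fdx2* were lost without any of the 6 libraries (0.0507 to 0.14) and that of *hsd17b12* without unaffected replicate 1 or 2 or wild-type replicate 1 or 3 (0.0894 to 0.149).

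Of 32 tested markers of the enveloping layer, which takes part in epiboly, 5 rose and 0 fell, with a median log2 fold change of 0.12. The share called was 15.6%, against 9.60% of all genes in both directions and 4.65% for rises alone. *krt5*, a type II keratin, was at 1140, 1190 and 1080 CPM in wild-type and at 1830, 2010 and 1870 CPM in unaffected mutants (0.75, SE 0.09, edgeR adjusted p = 0.000878). Affected mutants were at 1110 ± 87.1 CPM (SD, n = 3), lower than unaffected mutants by 0.78 on the log2 scale (adjusted p = 0.0057). *krt97*, a further keratin, and *pkp3a*, a desmosomal plakophilin, were smaller changes of the list. *krt97* rose by 0.47 and was likewise lower in affected than in unaffected mutants, by 0.56 (adjusted p = 0.0295). The other called genes were *anxa1*, encoding a membrane-binding annexin (1.19, SE 0.29) and *grhl1*, an epithelial transcription factor (0.49, SE 0.10), and *pkp3a* rose by 0.41. The abundant keratins *krt4*, *krt8* and *krt18a.1* did not pass the test, with log2 fold changes of 0.11, 0.11 and 0.17. With the replicate block 6 rose and 1 fell. The list had 10 called members without replicate 3 of every group and 1 without unaffected replicate 2, which was *krt5*. Leaving out single libraries, *anxa1* was lost without unaffected replicate 2 or wild-type replicate 1 or 2 (0.0589 to 0.106) and *grhl1* without unaffected replicate 1 or 2 (0.0542 and 0.0548).

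Of 50 tested genes of adhesion and actomyosin, 7 fell and 1 rose (16%, against 9.60%), whereas 25 of the 50 had a log2 fold change above 0. With the replicate block 10 fell and 4 rose. *rock2* and *vcl* were chosen after their values were seen. *rock2* (ENSDARG00000017500), a kinase that activates myosin, fell from 82.5, 83.5 and 76.3 to 63.4, 57.6 and 56.6 CPM (-0.45, SE 0.09, edgeR adjusted p = 0.0111), while the further identifier ENSDARG00000004877 did not pass the test (0.05) and was lower in affected than in unaffected mutants, by 0.76 (adjusted p = 0.00965). *vcl* (ENSDARG00000098695), encoding the junction protein vinculin, fell from 59.9, 57.9 and 70.0 to 45.5, 41.0 and 46.3 CPM (-0.50, SE 0.10, adjusted p = 0.0129). The tight junction gene *cldn5* fell by 1.24, and *capn2a*, a calpain protease, by 1.22. The gene that rose was *jup*, encoding plakoglobin of desmosomes (0.34, SE 0.09). The count of called members depended on single libraries, with 0 without unaffected replicate 2, 3 without unaffected replicate 1 and 18 without replicate 3 of every group. The claudin *cldna*, outside the list and chosen after its values were seen, fell from 3.11, 2.01 and 2.87 to 0.395, 0.739 and 0.632 CPM (-2.17, SE 0.31, adjusted p = 0.00213) and was higher in affected than in unaffected mutants by 2.24 (adjusted p = 0.0107).

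In the yolk syncytial layer, 2 of 20 markers rose and 1, *fn1*, fell (15%, against 9.60%), and with the replicate block 3 rose and 2 fell. *slc3a2*, the heavy chain of amino acid transporters, was at 243, 280 and 309 CPM in wild-type and at 445, 504 and 359 CPM in unaffected mutants (log2 fold change 0.65 with an SE of 0.16, adjusted p = 0.0307 in edgeR). *creb3l3l*, a transcription factor of lipid secretion, rose from 24.3, 27.9 and 24.8 to 36.8, 42.7 and 33.4 CPM (0.55, SE 0.13, adjusted p = 0.028). Both were higher again in affected mutants, by 0.88 and 0.72 (adjusted p = 0.0236 and 0.0239), and both calls against wild-type were lost without unaffected replicate 1 or 2 (0.0733 to 0.11) and some wild-type libraries. Among 14 genes of lipoproteins and yolk lipid export, *apob* (ENSDARG00000042780), a structural protein of lipoprotein particles, fell from 177, 158 and 181 to 68.9, 46.8 and 123 CPM (-1.11, SE 0.27, adjusted p = 0.0299), with unaffected replicate 3 nearest to wild-type. It was the only call of the list (7.14%, against 9.60% of all genes), and with the replicate block 4 were called, all lower. The call of *apob* was lost without any library except unaffected replicate 3 (0.0511 to 0.112). *mttp* and *apoa1b*, abundant genes of the same process, did not pass the test, with edgeR adjusted p of 0.846 and 1.0.

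Genes of the endoplasmic reticulum and of the amino acid response downstream of Atf4 lay mostly above wild-type. Of 54 tested, 9 rose and 2 fell (20.4%, against 9.60%), 45 had a log2 fold change above 0, and the median was 0.20. *aldh18a1*, the entry enzyme of proline synthesis, rose from 34.5, 41.0 and 34.2 to 94.4, 113 and 70.5 CPM (1.34, SE 0.16, edgeR adjusted p = 0.000878). *hsp90b1*, a chaperone of the endoplasmic reticulum, rose from 66.5, 43.4 and 67.5 to 123, 90 and 105 CPM (0.84, SE 0.18, adjusted p = 0.0161), and *dnajb9*, a co-chaperone, rose by 1.01. The amino acid transporters *slc7a3* and *slc7a5* fell, by 0.60 and 0.87 on the log2 scale, and *slc7a5* was higher in affected than in unaffected mutants by 1.04 (adjusted p = 0.0147). The list had 3 called members without unaffected replicate 1 and 5 without unaffected replicate 2 or wild-type replicate 2. *hsp90b1* was lost without unaffected replicate 1 (0.0632), and *dnajb9* without unaffected replicate 1 or 2 or wild-type replicate 2 or 3 (0.102 to 0.155). Of 20 heat shock genes, the transcription factor gene *hsf2* was the only called member (5.0%, against 9.60% of all genes). It rose from 69.0, 86.6 and 73.7 to 118, 137 and 102 CPM (0.64, SE 0.12, edgeR adjusted p = 0.0107). With the replicate block 3 of the 20 were called, against 16.3% of all genes.

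Among 38 genes of autophagy and the lysosome, 4 rose and 1 fell (13.2%, against 9.60%), and with the replicate block 7 rose and 1 fell. Besides *ctsb*, *mcoln1*, the calcium channel of lysosomes, rose from 11.4, 15.1 and 15.5 to 32.0, 34.2 and 32.2 CPM (log2 fold change 1.23 with an SE of 0.12, adjusted p = 0.000295 in edgeR). *sqstm1*, the autophagy receptor p62, rose from 8.89, 8.37 and 5.59 to 14.1, 18.6 and 19.5 CPM (1.19, SE 0.22, adjusted p = 0.00817). The protease gene *ctsk* fell by 1.84, at under 4 CPM in every library. The list had at least 5 called members whichever of the 6 libraries was left out. Of 34 genes of the thioredoxin and redox systems, *gsto2* (1.51), *prdx1* (1.17) and *prdx3* (0.90) rose, and *gpx8* (-1.36) and *glrx3* (-0.42) fell (14.7%, against 9.60%). With the replicate block 5 rose and 4 fell. The calls of *prdx1* and *prdx3* were lost without unaffected replicate 2 (0.0676 and 0.053), and that of *glrx3* without unaffected replicate 1 or 2 or wild-type replicate 2 or 3 (0.0764 to 0.155).

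**Figure D4:**
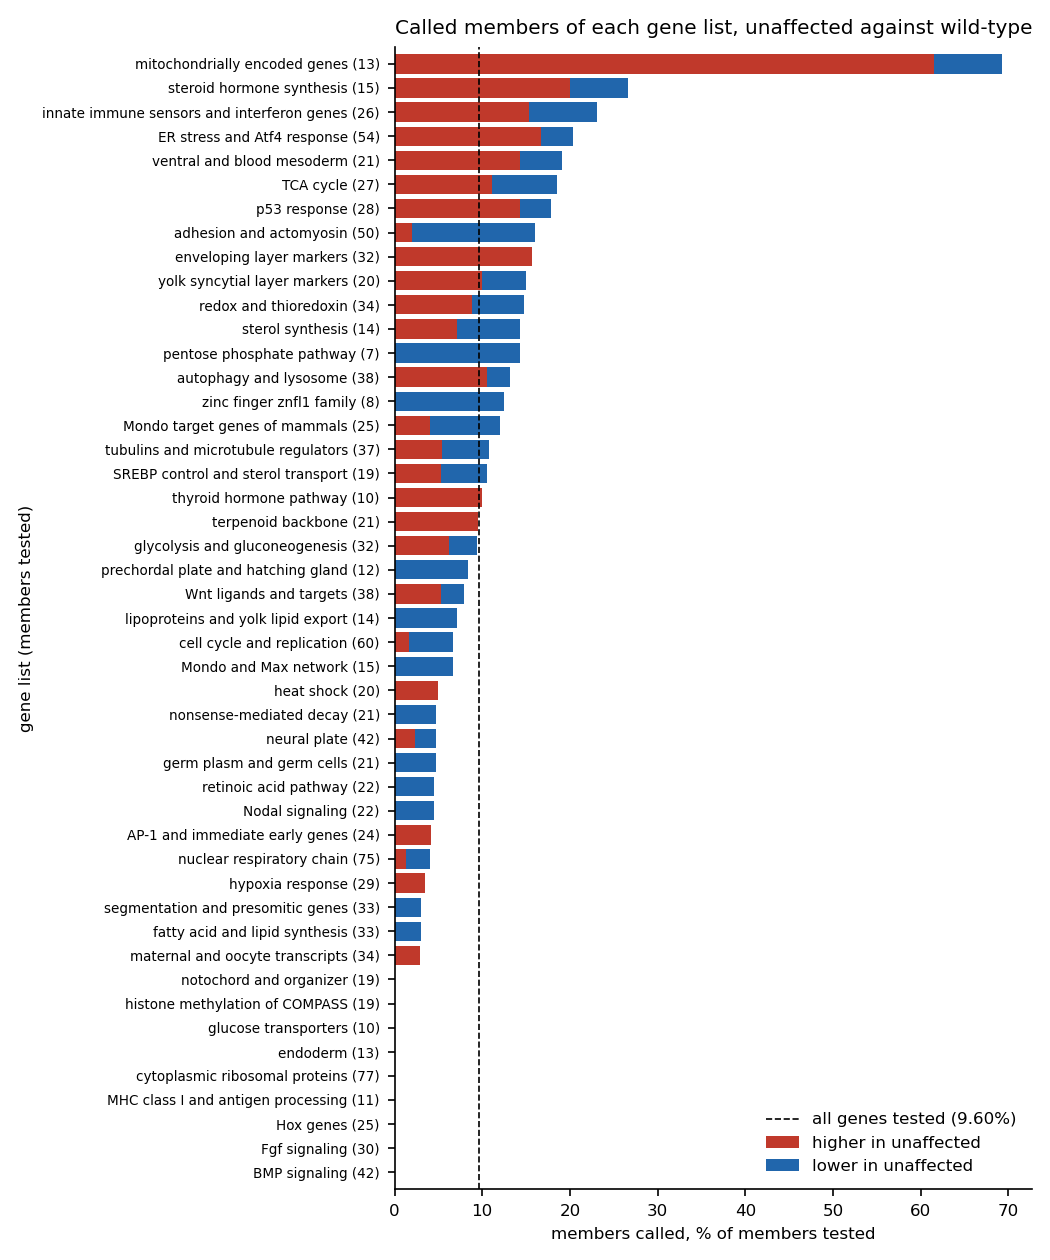
Members called higher (red) or lower (blue) in unaffected MZmondoa against wild-type embryos, as a percentage of the members tested in each gene list, whose number is given in brackets. The dashed line marks the 9.60% of all genes tested, and the genes encoded by mitochondrial DNA stand at 69.2%.

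Few of the genes that pattern the gastrula passed the test. None of 42 BMP, 30 Fgf, 19 notochord and organizer and 13 endoderm genes was called, 1 of 22 Nodal genes was (*tgif1*, a repressor of the pathway, log2 fold change -0.34), and 3 of 38 Wnt genes were. Of these, *nkd1*, a feedback inhibitor, fell from 76.5, 64.5 and 76.6 to 45.3, 53.4 and 43.1 CPM (-0.62, SE 0.12, edgeR adjusted p = 0.00951). The ligand *wnt8a* rose by 0.51 and the antagonist *sfrp1* by 0.35. Each of these lists was below the 9.60% of all genes. The Fgf list had 5 of 30 genes with a log2 fold change above 0 (median -0.16) and the BMP list 14 of 42 (median -0.09). With the replicate block 2 BMP genes were called, both lower, 2 notochord and organizer genes and 1 endoderm gene. In the neural plate list, 2 of 42 were called (4.76%, against 9.60%), *zic5* (1.25, SE 0.16) and *sox11* (-0.53, SE 0.11). The calls of *tgif1*, *wnt8a* and *sfrp1* were lost without unaffected replicate 1 or 2 (0.0574 to 0.168) and that of *sox11* without unaffected replicate 2 (0.059).

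The ventral and blood mesoderm list was the exception among the patterning lists, with 3 of 21 genes higher and 1 lower (19.0%, against 9.60%). *lmo2*, a cofactor of blood and vessel progenitors, was at 2.31, 0.436 and 0.458 CPM in wild-type and at 8.44, 12.1 and 8.90 CPM in unaffected mutants (log2 fold change 3.22 with an SE of 0.50, adjusted p = 0.00324 in edgeR). *tbx20*, a T-box factor of the heart, was at 0.338, 0.203 and 0.152 CPM in wild-type and at 5.57, 5.59 and 3.16 CPM in the mutants (4.36, SE 0.46, adjusted p = 0.000405). *gata4*, a further heart and endoderm factor, went the opposite way, from 7.94, 8 and 6.20 to 3.27, 2.60 and 2.65 CPM (-1.38, SE 0.17, adjusted p = 0.000901). These 3 calls held whichever library was left out. *drl*, a zinc finger gene of lateral mesoderm, rose by 1.15, and its call was lost without unaffected replicate 2 or any wild-type library (0.0528 to 0.11).

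Hox genes were low in part of the mutant libraries only. Their summed level was 253, 251 and 265 CPM in wild-type, 157, 97.6 and 245 CPM in unaffected replicates 1 to 3, and 62.9, 62.1 and 101 CPM in affected mutants. Unaffected replicate 3 was thus close to wild-type, whereas replicates 1 and 2 were lower. None of 25 tested Hox genes was called (against 9.60% of all genes), although all 25 had a log2 fold change below 0 and the median was -0.83. Without unaffected replicate 3, 10 were called (against 1797 of all 17398 genes tested) and the median was -1.33. Without replicate 3 of every group 12 were called (against 2174 of 16945). In the fit with a replicate block 5 were (against 16.3% of all genes). With the block on the 6 libraries only 0 were called (against 1446 of 16506), and with DESeq2 1 was (against 2251 of 16962). *hoxc3a*, chosen after its values were seen, was at 74.3, 74.2 and 71.3 CPM in wild-type and at 41.1, 26.8 and 62.5 CPM in the unaffected mutants (-0.75, SE 0.27, edgeR adjusted p = 0.115, 0.0227 with the block). Among the segmentation genes, 1 of 33 was called (3.03%, against 9.60% of all genes). This was *uncx*, a somite homeobox gene at 1.08 CPM or less in the 6 libraries (-1.54, SE 0.40, edgeR adjusted p = 0.0366). *uncx* was higher in affected than in unaffected mutants by 1.73 (adjusted p = 0.0471). Its call was lost without unaffected replicate 1 or 3 or any wild-type library (0.0511 to 0.119). With the replicate block 3 of the 33 segmentation genes were called, against 16.3% of all genes. Of 34 maternal and oocyte transcripts, 1 was called (2.94%, against 9.60% of all genes), and 4 were with the block (against 16.3% of all genes). The gene called without the block was *zp2.2*, an egg coat gene (1.12), lost without unaffected replicate 2 (0.0697).

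**Figure D5:**
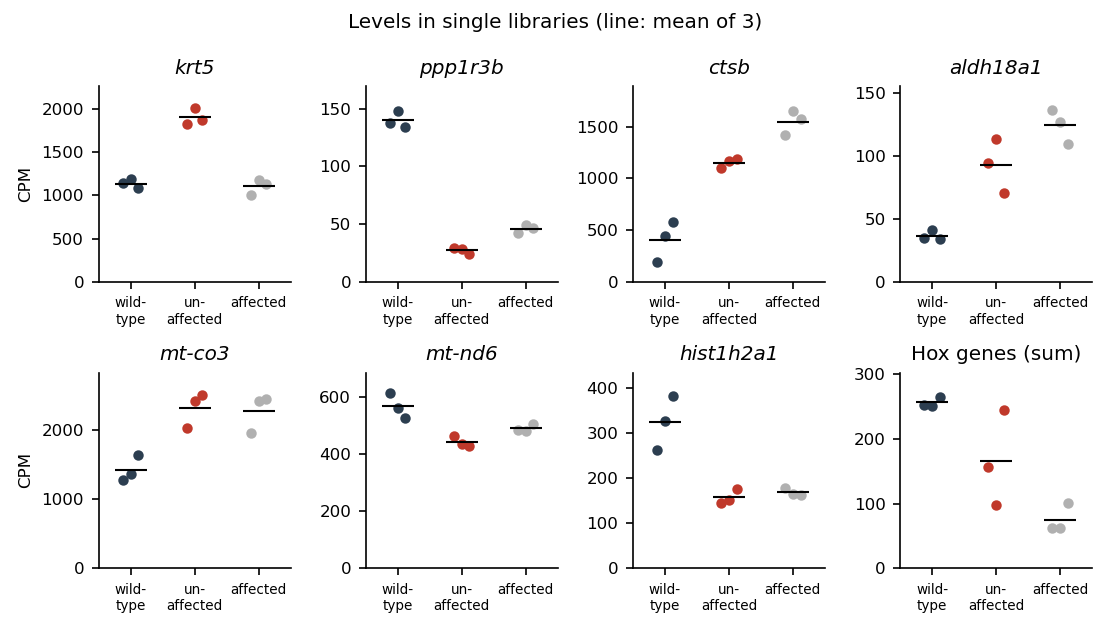
CPM in single libraries (points) of 7 genes and of the summed Hox genes in wild-type, unaffected and affected embryos, with the mean of 3 libraries as a line and each axis starting at 0. krt5 is raised in unaffected mutants only, ppp1r3b is low in both mutant groups, and the Hox sum of unaffected replicate 3 (245 CPM) lies near wild-type.

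None of 77 ribosomal protein genes was called (median log2 fold change 0.03), against 9.60% of all genes, and 3 were with the replicate block, against 16.3%. None of 19 COMPASS genes and none of 11 genes of MHC class I and antigen processing was called. In lists this short, the 9.60% of all genes would amount to few calls. Of 60 cell cycle and replication genes, 1 rose and 3 fell (6.67%, against 9.60% of all genes), and with the replicate block 3 rose and 6 fell. *top2a*, the topoisomerase of mitosis, fell from 569, 611 and 548 to 434, 449 and 426 CPM (-0.40, SE 0.08, edgeR adjusted p = 0.0154), and *mcm6*, a subunit of the replicative helicase, fell from 367, 446 and 465 to 274, 258 and 329 CPM (-0.57, SE 0.12, adjusted p = 0.019). *rrm2*, a ribonucleotide reductase subunit, was at 1.01, 144 and 62.7 CPM in wild-type and at 0.821 to 1.58 CPM in the mutants, so that wild-type replicate 1 overlapped the mutants despite the call (-5.85, SE 1.25). All of these 3 calls were lost without unaffected replicate 1 or 2 (0.0556 to 0.0837). *cdc25d* rose by 1.37 and was likewise lost (0.0608 and 0.0557).

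In the p53 list, 4 of 28 rose and 1 fell (17.9%, against 9.60%), whereas 11 of the 28 had a log2 fold change above 0 and the median was -0.05. *gadd45b*, a damage-inducible gene, rose at both identifiers, from 10.1, 9.39 and 11.6 to 21.7, 25.8 and 13.7 CPM at ENSDARG00000013576 (log2 fold change 0.97 with an SE of 0.20, adjusted p = 0.0138 in edgeR) and by 0.57 at ENSDARG00000027744. The second call was lost without unaffected replicate 1 or 2 or wild-type replicate 1 or 3 (0.0551 to 0.156), the first without unaffected replicate 1 (0.0529). Both were higher still in affected mutants, by 1.25 and 0.78 (adjusted p = 0.0146 and 0.0298). *mdm4*, an inhibitor of p53, fell by 0.41 and was lost without unaffected replicate 1 or 2 or wild-type replicate 1 (0.0723 to 0.111). The list had 0 called members without unaffected replicate 1 and 1 without unaffected replicate 2. In the AP-1 list, *fosl1* alone of 24 tested genes was called (4.17%, against 9.60% of all genes). It rose from 1.17, 0.843 and 0.788 to 1.80, 1.48 and 1.55 CPM (0.79, SE 0.22). Affected mutants were at 7.67 ± 0.971 CPM (SD, n = 3) and exceeded unaffected ones by 2.25 (edgeR adjusted p = 0.00159). The call of *fosl1* was lost without any library except wild-type replicate 1 (0.0661 to 0.148).

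Among 37 tubulins and microtubule regulators, 2 rose and 2 fell (10.8%, against 9.60%), and with the replicate block 3 rose and 5 fell. *tuba4l*, an alpha-tubulin, fell from 15.1, 14.6 and 16.3 to 5.46, 6.30 and 4.2 CPM (log2 fold change -1.53 with an SE of 0.16, adjusted p = 0.000339 in edgeR). *clip2*, a linker protein at microtubule ends, fell from 67.2, 59.2 and 72.4 to 45.4, 49.1 and 50.2 CPM (-0.46, SE 0.10, adjusted p = 0.0164). *tubb2b* and *stmn1*, the latter a destabilizer of microtubules, rose by 1.35 and 2.08 at 1.41 CPM or less. All but the fall of *tuba4l* were lost without unaffected replicate 1 or 2 (0.0556 to 0.117).

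Genes of the innate immune list moved in both directions, with 4 of 26 higher and 2 lower (23.1%, against 9.60%). The list, which holds *prkcq*, was written with earlier results of these data known, so its share is not independent of them. Besides *prkcq* and *unc93b1*, the RNA sensor *dhx58* rose from 0.123, 0.262 and 0.432 to 0.79, 0.809 and 0.695 CPM (log2 fold change 1.45 with an SE of 0.39, adjusted p = 0.0459 in edgeR). *irf8*, a transcription factor of myeloid cells, fell from 1.08, 0.785 and 1.47 to 0.0718, 0.0703 and 0.158 CPM (-3.40, SE 0.48, adjusted p = 0.00198), and the cytokine *il1b* fell from 0.646, 0.552 and 0.61 to 0.144, 0.105 and 0.126 CPM (-2.23, SE 0.35, adjusted p = 0.00372). The mutant values of these 2 genes are at or near the 0.0947 to 0.108 CPM that 3 counts give. *sting1*, of the DNA sensing pathway and chosen after its values were seen, rose from 3.57, 4.71 and 6.84 to 14.7, 12.3 and 21.4 CPM (1.68, SE 0.34, adjusted p = 0.0129) and was lower by 1.44 in affected than in unaffected mutants (adjusted p = 0.0497). *dhx58* was lost without any library except wild-type replicate 3 (0.0635 to 0.127), and the list had 4 to 6 called members when single libraries were left out.

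A small set of genes was counted in only 1 of the groups. In all, 8 called genes had 0 counts in all 3 libraries of a group, 4 of them in the unaffected mutants and 4 in wild-type. *ifit11*, of an interferon-induced family, had 54, 23 and 60 counts in wild-type and 0 in the mutants, which makes it at least 11.9-fold lower against 3 counts per library. *tmem176l.2* had 22, 22 and 65 counts in wild-type (at least 9.16-fold lower) and *sema4aa*, a semaphorin, 12, 14 and 13 (at least 3.42-fold lower). In the other direction, ENSDARG00000098243 had 21, 16 and 16 counts in the mutants and 0 in wild-type (at least 6.58-fold higher). These genes were scarce in the group that had them, at 0.203 to 1.28 CPM on average.

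Neighbours of the mutated gene were examined separately. Of 20 tested genes around *mlxip*, 10 on each side in the order of another assembly, 3 were called (against 9.60% of all genes), all of them higher. *eif4e1b*, a cap-binding factor of the egg, rose from 10.0, 11 and 14.8 to 21.7, 27.2 and 18.5 CPM (log2 fold change 0.91 with an SE of 0.18, adjusted p = 0.0135 in edgeR), and *mtif3*, a mitochondrial translation factor, rose from 4.83, 3.55 and 3.28 to 5.50, 6.4 and 7.23 CPM (0.72, SE 0.19, adjusted p = 0.0397). The remaining called neighbour was the unnamed locus *zgc:175280* (3.14). The call of *eif4e1b* was lost without unaffected replicate 2 (0.0508) and that of *mtif3* without any library except wild-type replicate 1 (0.0604 to 0.108). Among the other neighbours, none of which passed the test, *rsrc2*, *zcchc8*, *arhgap31* and *casr* had log2 fold changes of -0.02, -0.15, 0.88 and -0.94, the last with groups that did not overlap (edgeR adjusted p = 0.106). Background differences between the mutant line and the wild-type fish and loss of MondoA cannot be told apart in this design.

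Of the genes called between unaffected mutants and wild-type, 81 also differed between affected and unaffected mutants, where 2.99% of all genes tested were called. Both contrasts contain the unaffected libraries, so the signs are not independent. For 60 genes affected mutants differed further in the same direction, and for 21 the affected mutants differed in the opposite direction from the unaffected ones. The latter, chosen after their values were seen, included *krt5*, *krt97*, *ldlrb*, *slc7a5*, *uncx*, *cldna*, *sting1* and *ppp1r3b* among the genes described above. *zbtb12.1* was also among them, at 3.08, 2.09 and 2.87 CPM in wild-type, 0.0718, 0.141 and 0.126 CPM in unaffected and 0.427 ± 0.131 CPM (SD, n = 3) in affected mutants (log2 fold change between the mutants 1.88, edgeR adjusted p = 0.0447).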

How the data were processed

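RNA from embryo pools was depleted of ribosomal RNA and sequenced from strand-marking libraries. The authors mapped the reads to GRCz11 with STAR (version 2.4.0i in the submitters' processing notes) and deposited raw counts of uniquely mapped read pairs per Ensembl gene. Use of strand in the counting is not given in the sources used here. Symbols were matched for 28986 of 32055 identifiers. Genes were filtered with filterByExpr and scaled by TMM, all 9 libraries were fitted as 3 groups in edgeR 4.0.16 (R 4.3.3, quasi-likelihood test), and p-values were adjusted by Benjamini-Hochberg over 16962 genes at a threshold of 0.05. The SE is the log2 fold change divided by the square root of F. A replicate block was an alternative fit, since the labels number replicates 1 to 3 in every group. Deviations of same-numbered unaffected and wild-type libraries correlated at r = 0.226, 0.197 and 0.405. Unaffected replicate 1 correlated more highly with a wild-type library of another number (0.234), whereas replicates 2 and 3 did not (0.0235 and -0.162 at most). These values do not show that the numbers mark pairs. DESeq2 1.42.0, other filters and scalings, the 6 compared libraries alone and leaving out single libraries were further alternatives. The fit was tested on simulated data. Named genes were the 12 largest rises and falls (average log2 CPM of at least 3, groups not overlapping), the 6 largest rises and falls in CPM, up to 3 called members a direction in each list, markers, neighbours and genes at 0, some of which are not reported here. The gene lists and these rules were chosen with earlier results of these data known. A promoter search was not run and no sequence is shown.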

Additional observations from a re-analysis of the deposited data

How the results depend on the processing

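The 1628 called genes became 2758 (1362 higher, 1396 lower) with the replicate block and 965 (435 higher, 530 lower) with only the 6 compared libraries. Leaving out single libraries gave 758 to 1797 called genes, 370 to 843 higher and 388 to 954 lower. The 891 genes called with at least a 2-fold change became 536 with a minimum of 10 counts in every library, and 540 to 1044 when single libraries were left out. The log2 fold change of hk2, at 0.01, changed sign to -0.0002 with scaling by library size only, to -0.0018 with the replicate block, to -0.0057 with the replicate block and only the 6 libraries, and to -0.09 without replicate 3 of every group. It ranged from -0.14 to 0.13 when single libraries were left out, and the log2 fold change of nsdhl from -0.32 to 0.06. Neither gene was called in any of these fits, and the cause was not tested. Of the 139 called genes selected by rule or chosen, 66 kept the call whichever library was left out, 90 with only the 6 libraries, and 139 with the replicate block and with DESeq2. The block with only the 6 libraries and the fit without replicate 3 of every group were chosen after seeing the data. The promoter motif alternative was not run. With 3 libraries a group, small changes of scarce genes were not detectable.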
